A study of Mus musculus with 4 samples.

Results

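The genes described here make, conjugate and move bile acids in hepatocytes, or set the rate at which this is done. They are 10 genes taken by symbol from a table of 45777: Cyp7a1, Cyp7b1, Cyp8b1, Cyp27a1, Cyp2c70, Baat, Abcb11, Slc10a1, Nr1h4 and Fgfr4. All 10 were in the table, and 9 had an FPKM (fragments per kilobase of transcript, scaled to library size) of at least 1 in at least 1 library. Cyp7a1 was the exception, and 11927 genes in all passed this limit.

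RNA came from primary mouse hepatocytes of Dusp6 knockout mice (KO) or wild-type mice (WT). Dusp6 encodes a phosphatase that switches off the kinase ERK. After 3 h in culture the cells either received palmitic acid (0.5 mM) together with oleic acid (1 mM) for 24 h, or were left untreated. The groups are KO with fatty acids, WT with fatty acids, KO untreated and WT untreated, with 1 library each, so no difference below has a replicate check. The labels give no age, sex, strain or knockout design, and do not say how many animals a culture came from.

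Hepatocytes turn cholesterol into bile acids by a classical route, which Cyp7a1 opens, and by an acidic route through Cyp27a1 and Cyp7b1. Bile acids bind the nuclear receptor FXR (Nr1h4), which raises the repressor Nr0b2 and the canalicular export pump Abcb11. In the intestine FXR induces Fgf15, which signals in hepatocytes through Fgfr4 and its co-receptor Klb, partly by ERK, and holds Cyp7a1 down. Conjugated bile acids return to the hepatocyte through the sodium-dependent carrier Slc10a1.

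The libraries held 85423156 to 97364292 reads. The noncoding RNA genes Rn7s1 and Rn7s2 together took 2.6% of reads in KO and 8.2% in WT with fatty acids. Untreated they took 3.94% in KO and 6.2% in WT. What this did to the FPKM of other genes was not tested. Dusp6 had an FPKM of 1.11 in KO and 77.1 in WT with fatty acids, and untreated it was 1.42 in KO and 40.7 in WT. Hepatocyte markers summed to an FPKM of 8110 in KO and 6360 in WT with fatty acids, and untreated to 7460 in KO and 4960 in WT. Albumin was the largest part of these sums, and the median of the 7 markers for KO minus WT was -0.06 with fatty acids and 0.74 untreated, with Ttpa 2-fold lower in both. Markers of Kupffer cells and macrophages summed to 115 in KO and 102 in WT with fatty acids, and to 97.3 in KO and 43.2 in WT untreated. Untreated, 5 of 9 compared markers were 2-fold higher in KO than in WT and 0 lower, against 3.55% and 2.1% of all genes. With fatty acids 1 was higher (Clec4f) and 2 were lower (Adgre1 and Marco), against 3.12% and 8.43%. Sinusoidal endothelial markers summed to 13.6 and 14.4 with fatty acids, and to 19.2 and 6.76 untreated, again KO before WT. The bile duct keratin genes Krt19 and Krt7 and the channel gene Cftr stayed under an FPKM of 0.5 in every library, and so did the stellate cell genes Des and Lrat. Some other genes of these lists were not as low. The bile duct marker Spp1 stood at 21.2 in KO and 13.2 in WT with fatty acids, and at 18.7 and 4.09 untreated. Sox9 stood at 1.29 in KO and 2.61 in WT with fatty acids, and at 5.41 and 2.86 untreated. The fibroblast gene Dcn stood at 1.45 in KO and 0.434 in WT with fatty acids, and at 0.977 and 0.186 untreated. Whether other cells had a part in the results was not tested, and in bulk RNA fewer cells of a type cannot be told apart from less RNA per cell. Xist was at an FPKM of at most 0.0134 and the Y-linked Ddx3y at 23.9 to 34.9, the pattern of male cells in all 4 libraries.

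Proximal promoter sequence was available for 7 of the 10 genes (RefSeq, GRCm38.p6). The first window below belongs to Abcb11, the best known FXR target among them, and the second to Cyp2c70, which differed most between genotypes. Each runs from 250 bases before the annotated start to 50 bases after it. Capitals mark matches, with at most 2 mismatches on either strand, to the half-site AGGTCA followed by 1 base and its reverse complement TGACCT. This inverted repeat is the element to which FXR binds together with its partner RXR.
Abcb11 (chr2:69342567-69342866, minus strand): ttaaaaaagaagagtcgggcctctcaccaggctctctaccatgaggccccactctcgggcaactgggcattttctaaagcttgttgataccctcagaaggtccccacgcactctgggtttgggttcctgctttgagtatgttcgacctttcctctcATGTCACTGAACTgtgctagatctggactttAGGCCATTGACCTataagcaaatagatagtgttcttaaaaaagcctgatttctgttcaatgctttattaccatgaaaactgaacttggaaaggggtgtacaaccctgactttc
Cyp2c70 (chr19:40187237-40187536, minus strand): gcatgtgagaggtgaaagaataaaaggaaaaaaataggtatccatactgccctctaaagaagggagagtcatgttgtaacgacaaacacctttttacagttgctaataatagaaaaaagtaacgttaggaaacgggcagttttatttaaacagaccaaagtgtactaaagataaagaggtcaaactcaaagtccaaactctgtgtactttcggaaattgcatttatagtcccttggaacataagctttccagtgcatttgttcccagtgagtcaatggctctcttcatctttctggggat
In the Abcb11 window the match with 1 mismatch began 63 bases before the start, and a second with 2 mismatches began 94 bases before it. No other member's window held one, against 1.14% of 32851 windows in RefSeq. Such a match is a description of letters and not evidence of binding. The other motifs searched were a direct repeat of AGGTCA 1 base apart, an extended half-site TCAAGGTCA, and the HNF1 palindrome of GTTAAT and ATTAAC 1 base apart, with at most 2, 1 and 2 mismatches. They were in 3.86%, 7.46% and 1.36% of windows. Among the members only Nr1h4 held any of these 3, namely 1 direct repeat and 1 HNF1 match.

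The genes of the acidic route were the most abundant of the group and Cyp7a1, the rate-limiting enzyme of the classical route, was almost silent. Cyp27a1, the mitochondrial sterol 27-hydroxylase (chromosome 1, 74713148 to 74737897), ranked first of the 10 in every library. Its FPKM was 98.6 in KO and 112 in WT with fatty acids, and untreated it was 86.1 in KO and 112 in WT. Cyp7b1, the oxysterol 7-alpha-hydroxylase (chromosome 3, 18071944 to 18243890), ranked second throughout. It stood at 78.5 in KO and 68.5 in WT with fatty acids, and at 70.0 in KO and 69.9 in WT untreated. Its highest and lowest libraries were thus only 0.19 apart on the log2(FPKM + 1) scale, the narrowest range of the 9 genes with an FPKM of 1. Cyp7b1 is known to be higher in male than in female mouse liver.

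**Figure D1:**
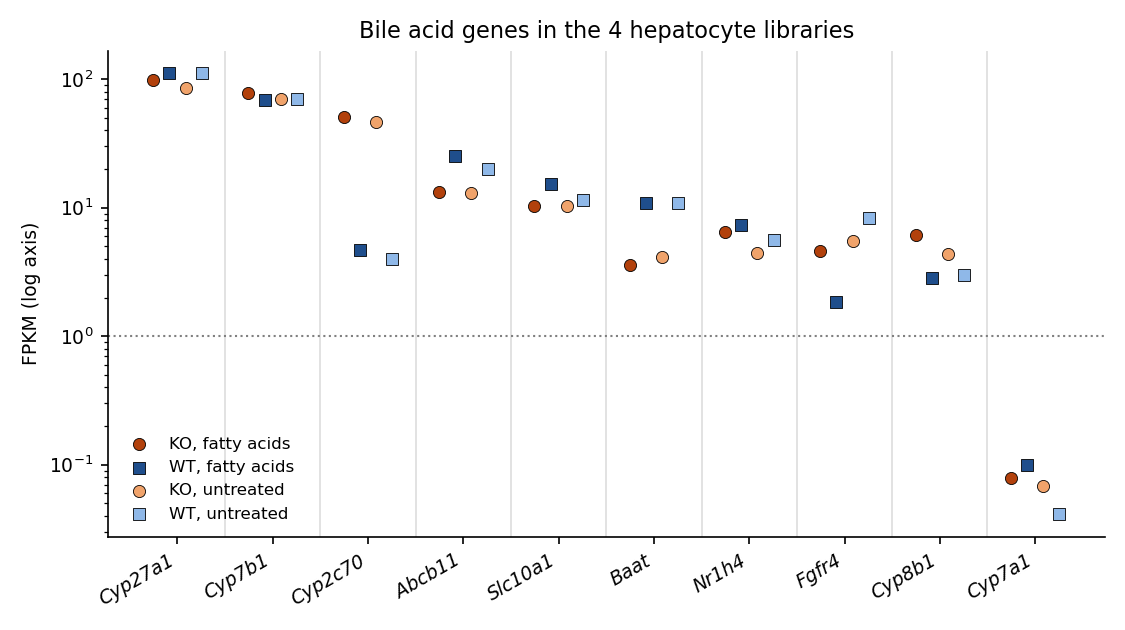
FPKM (log axis) of the 10 bile acid genes in each of the 4 libraries, 1 point per library, ordered by median level; the dotted line is an FPKM of 1. Cyp27a1 and Cyp7b1 lie highest at 68.5 or more, Cyp2c70 splits by genotype and Cyp7a1 stays under 0.1.

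Cyp7a1 (chromosome 4, 6265612 to 6275632) had 37 reads in KO and 43 in WT with fatty acids, and untreated it had 29 in KO and 17 in WT. Its FPKM was 0.0789 in KO and 0.0993 in WT with fatty acids, and untreated it was 0.0685 in KO and 0.041 in WT. No fold change is given for it on the FPKM scale. Read for read, the ratio of KO to WT was 0.607 with fatty acids (exact binomial 95% interval 0.38 to 0.964) and 1.69 untreated (0.900 to 3.29). The ratio of fatty acids to untreated was 1.01 in KO (0.606 to 1.71) and 2.94 in WT (1.64 to 5.49). These ratios, like all read ratios below, are scaled so that the median over 5903 abundant genes, those never under an FPKM of 5, is 1. The intervals take in counting error alone, since 1 library per group holds no spread between cultures. They may be too narrow even for that error, since reads need not be separate molecules.

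Genes that carry the feedback on Cyp7a1, and some other genes of bile acid export and sensing, were also low or without reads. Nr0b2, the FXR-induced repressor also called SHP, had 16 reads in WT untreated and none in the other libraries. A count of 0 allows up to 3 reads, or a CPM of 0.0308 to 0.0351 here (reads scaled to library size). Klb, the co-receptor that Fgfr4 needs for Fgf15, had 76 reads in KO and 83 in WT with fatty acids, and untreated it had 122 in KO and 92 in WT, an FPKM of 0.297 at most. Slc51a, a subunit of the basolateral bile acid exporter, had no read in any library. Its partner Slc51b had 62 reads in KO and 79 in WT with fatty acids, and untreated it had 46 in KO and 52 in WT. The FPKM of Slc51b was 0.933 to 1.55. Neither the intestinal hormone Fgf15 nor the bile acid receptor Gpbar1 had a read. The receptors at the head of both loops, Nr1h4 and Fgfr4, were measured with 601 reads or more in every library.

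**Figure D2:**
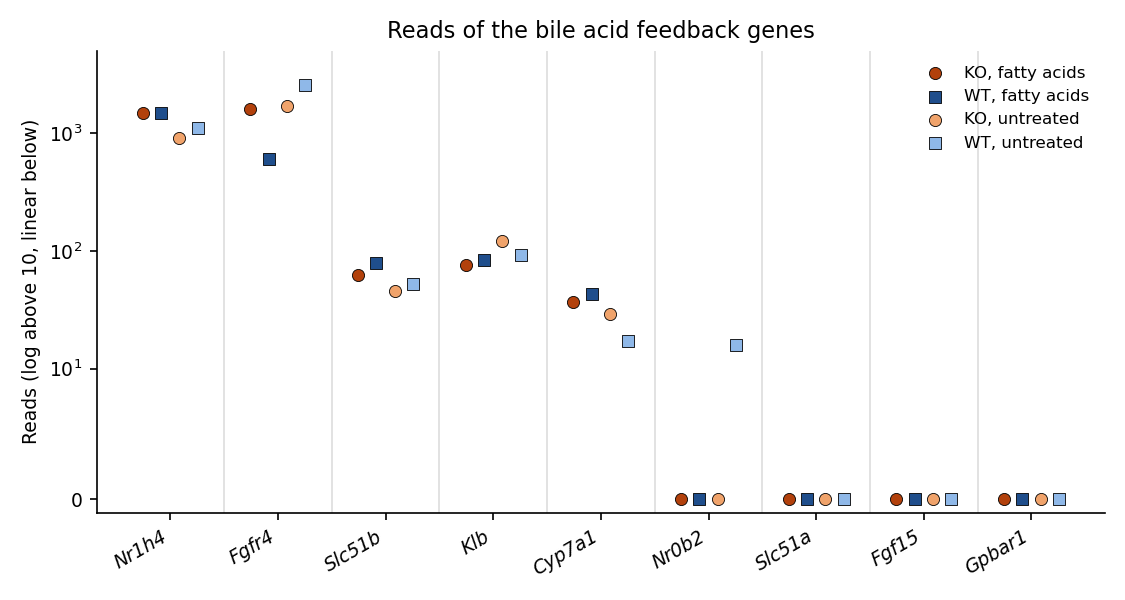
Reads per library (linear to 10, logarithmic above) of the receptors Nr1h4 and Fgfr4 and of genes of bile acid feedback, export and sensing. Both receptors have 601 reads or more in each library, Klb and Slc51b have 46 to 122, and Nr0b2 has reads in WT untreated only.

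KO and WT were compared gene by gene on the log2(FPKM + 1) scale, relative to the median gene, and a difference of 2-fold or more was counted. The deposited scale itself put the median gene 0.38 higher in KO with fatty acids and 0.00 higher untreated. With fatty acids, Cyp2c70 was higher in KO (1 of 9 members, against 3.12% of all genes), and Baat and Abcb11 were lower (2 of 9, against 8.43%). Untreated, Cyp2c70 was again higher (1 of 9, against 3.55%) and Baat again lower (1 of 9, against 2.1%). The median of the 9 members was -0.53 with fatty acids and -0.28 untreated, where that of all genes was -0.06 and 0.08. The balance of all genes with fatty acids depends on the scale, with 372 higher and 1006 lower in KO here, 809 and 831 with TMM factors, 1172 and 498 on the deposited scale, and 3340 and 360 at equal sums. Untreated, 423 were higher and 250 lower, against 1253 and 181 at equal sums. Equal sums divide each FPKM by the sum of its library, which with fatty acids was 557953 in KO and 731758 in WT. Of these sums the noncoding RNA genes Rn7s1 and Rn7s2 held 41590 and 34440 in KO, and 118300 and 117700 in WT. Their part in the balance at equal sums was not tested.

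Cyp2c70 (Entrez 226105, chromosome 19, 40153361 to 40187286) makes muricholic acids, the 6-hydroxylated bile acids of mice and rats. It stood at an FPKM of 51.1 in KO and 4.68 in WT with fatty acids, and at 46.3 in KO and 4.02 in WT untreated. Both KO libraries lay far above both WT libraries, and within a genotype the treatment moved it little. The difference of KO minus WT was 2.82 with fatty acids and 3.24 untreated. In reads the ratio was 8.63 with fatty acids (exact 95% interval 8.02 to 9.29, from 9715 and 794 reads) and 11.5 untreated (10.6 to 12.5, from 7840 and 676 reads). Cyp2c70 stood at place 3 among the 10 genes in both KO libraries, against place 7 in WT with fatty acids and place 8 in WT untreated.

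Cyp2c70 lies in the Cyp2c cluster of chromosome 19, whose members are close in sequence. None of the 1668 stretches of 50 bases in its longest GENCODE M21 transcript occurs in a transcript of another gene. Of the 13 other Cyp2c genes compared, 2 were 2-fold higher and 3 lower in KO with fatty acids, with a median of -0.15, and 4 were higher and 2 lower untreated, with a median of 0.62. The shares of all genes were 3.12% higher and 8.43% lower with fatty acids (median -0.06), and 3.55% and 2.1% untreated (median 0.08). The 2 that were higher in both states were Cyp2c55 (FPKM 5.20 in KO and 0.966 in WT with fatty acids) and the pseudogene Cyp2c53-ps (5.96 and 0.852). The neighbour Cyp2c50 stood at 97.2 in KO and 75.5 in WT with fatty acids, and at 103 in KO and 53.7 in WT untreated. Cyp2c37 and Cyp2c38 were 2-fold lower in KO in both states. Cyp2c37 stood at 62.0 in KO and 151 in WT with fatty acids, and at 56.2 in KO and 117.9 in WT untreated. Cyp2c38 stood at 1.71 in KO and 7.83 in WT with fatty acids, and at 2.36 in KO and 5.96 in WT untreated. Over all 4 libraries, the genes whose log2 profile lay nearest to that of Cyp2c70 were the carbonic anhydrase Car3 (distance 0.24), the guanylate-binding protein Gbp2b (0.50) and the inhibitor of DNA binding Id1 (0.53), out of 10481 searched. Gbp2b had an FPKM of 12.97 in KO with fatty acids, 11.11 in KO untreated and 0 in both WT libraries. Its distance therefore depends on the 1 added to each FPKM. With 4 libraries such likeness is a description only.

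Cyp8b1, the sterol 12-alpha-hydroxylase that directs the pathway to cholic acid (chromosome 9, 121914356 to 121916305), did not reach 2-fold. It stood at 6.09 in KO and 2.83 in WT with fatty acids, and at 4.37 in KO and 2.99 in WT untreated. The KO library was above the WT library in both states, by 0.51 and 0.43 relative to the median gene. With fatty acids the call depends on the scale, since the difference ran from 0.20 to 1.29 over the alternatives and passed 2-fold at equal sums. In reads the ratio was 1.63 (1.48 to 1.81) with fatty acids and 1.46 (1.31 to 1.63) untreated. Cyp27a1 lay the other way, at -0.55 with fatty acids and -0.38 untreated, and Cyp7b1 at -0.18 and 0.00.

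Baat, which joins bile acids to taurine or glycine (chromosome 4, 49489416 to 49507915), was lower in KO. Its FPKM was 3.60 in KO and 10.9 in WT with fatty acids, and untreated it was 4.15 in KO and 10.97 in WT. Both KO libraries lay under both WT libraries. How many of all genes show such an order of the 4 libraries was not counted, for this or any other gene named. The difference was -1.74 with fatty acids and -1.22 untreated, and the read ratio 0.249 (0.229 to 0.270) and 0.376 (0.347 to 0.408). With a pseudocount of 5 the untreated difference was -0.81 and no longer 2-fold. The lncRNA gene Gm32894 overlaps Baat and had 41 reads in KO with fatty acids and none elsewhere. Slc27a5, the bile acid-CoA ligase that acts just before Baat, stood at 91.7 in KO and 86.2 in WT with fatty acids, and at 80.6 in KO and 81.0 in WT untreated, differences of -0.29 and -0.01.

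Abcb11, the bile salt export pump of the canalicular membrane (chromosome 2, 69238282 to 69342616), carries the inverted repeat printed above. It stood at 13.2 in KO and 25.3 in WT with fatty acids, and at 13.1 in KO and 20.2 in WT untreated. The KO libraries were nearly equal and both below the WT libraries. The difference was -1.26 with fatty acids and -0.58 untreated, and the read ratio 0.395 (0.384 to 0.407) and 0.649 (0.629 to 0.670). The call with fatty acids depends on the scale. It was kept in 9 of 11 alternatives, and lost on the deposited scale (-0.88) and at equal sums. Over the alternatives the difference ran from -1.33 to -0.52. Of its 4976 stretches of 50 bases, 89 also occur in transcripts of Gm13613.

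Slc10a1, also known as NTCP (chromosome 12, 80953185 to 80968705), stood at 10.3 in KO and 15.3 in WT with fatty acids, and at 10.2 in KO and 11.4 in WT untreated. Its differences were -0.90 and -0.15, neither of them 2-fold. Nr1h4, which encodes FXR (chromosome 10, 89454234 to 89533645), stood at 6.48 in KO and 7.34 in WT with fatty acids, and at 4.46 in KO and 5.61 in WT untreated. Its differences were -0.53 and -0.28. Fgfr4 (chromosome 13, 55152818 to 55168759) changed order between the states. It stood at 4.58 in KO and 1.84 in WT with fatty acids, and at 5.48 in KO and 8.26 in WT untreated, differences of 0.60 and -0.52.

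**Figure D3:**
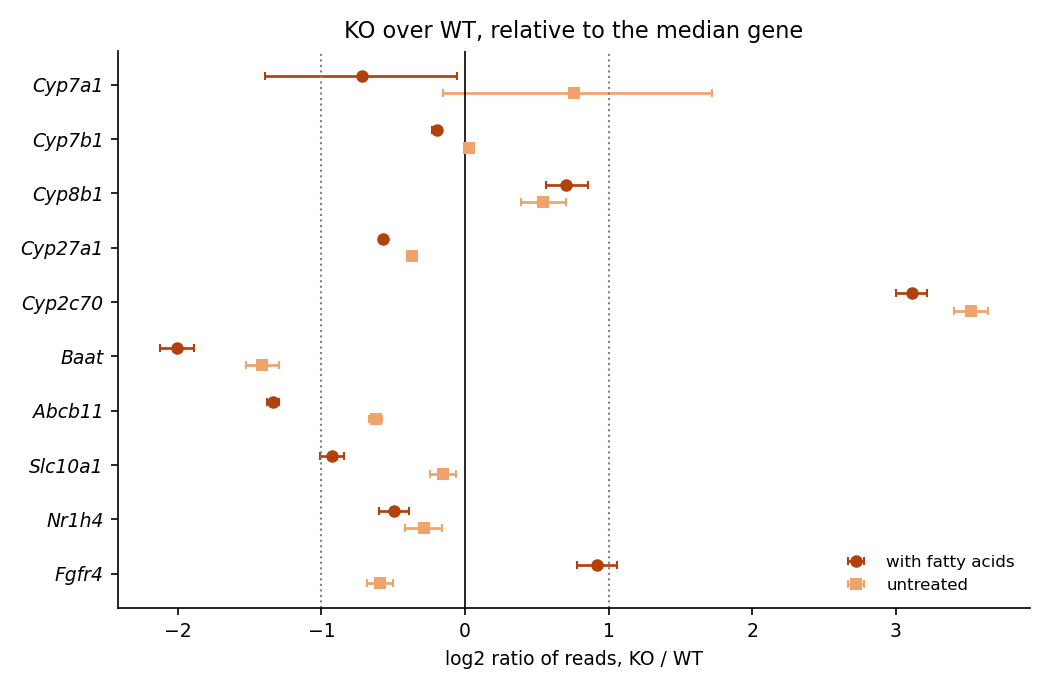
Ratio of KO to WT reads (log2) for each bile acid gene with fatty acids (dark circles) and untreated (light squares), scaled to the median gene; bars are exact binomial 95% intervals, which cover counting error only, and dotted lines mark 2-fold. Cyp2c70 lies at ratios of 8.63 and 11.5, Baat at 0.249 and 0.376, and Fgfr4 on opposite sides of 0.

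When the 2 treatment states were taken as the only replicates of a genotype, an additive edgeR quasi-likelihood fit with 1 residual degree of freedom called 655 of 11927 genes (5.49%) at an adjusted p under 0.05. Among the 9 members, 3 were called. They were Cyp2c70 (log2 KO minus WT 3.27, Benjamini-Hochberg adjusted p = 1.08e-05 in edgeR), Baat (-1.75, adjusted p = 0.00435) and Abcb11 (-1.02, adjusted p = 0.0372). The next were Slc10a1 (-0.58, adjusted p = 0.318) and Cyp27a1 (-0.51, adjusted p = 0.335), and Fgfr4 had 0.12 (adjusted p = 0.914). The fit takes any dependence of the genotype difference on treatment for noise. The labels do not say whether the libraries of a genotype came from separate animals, so its p-values may not measure the spread between mice.

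Against untreated cells, 1 member differed by 2-fold with fatty acids. In WT, Fgfr4, the receptor tyrosine kinase for Fgf15, was lower with fatty acids, at an FPKM of 1.84 against 8.26 untreated. In KO it stood at 4.58 with fatty acids and 5.48 untreated. The WT library with fatty acids was the only one of the 4 under 4.5. The difference was -1.44 in WT (1 of 9 members lower, against 0.654% of all genes) and -0.38 in KO. The read ratio was 0.272 in WT (0.249 to 0.297, from 601 and 2564 reads) and 0.747 in KO (0.697 to 0.800, from 1609 and 1711 reads). The KO response exceeded the WT response by 1.06 (1 of 9 members 2-fold higher, against 1.14% of all genes), and with 1 library per group this was not tested. Over all genes, 136 responses were higher and 1273 lower in KO on this scale, against 757 and 479 on the deposited scale and 1154 and 545 at equal sums. The deposited scale placed the median gene 0.16 higher with fatty acids in KO and 0.26 lower in WT, a log2 shift of -0.26. The balance of all genes in WT again depends on the scale, with 426 higher and 78 lower with fatty acids here and 212 and 267 on the deposited scale.

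Fgfr4 has the highest GC content of the members, 58.8% in its longest transcript, which is above that of 95.4% of the 5842 abundant genes with a transcript. In WT, the 243 genes within 1 percentage point of this GC content had a median difference of -0.10 with fatty acids, and in KO of 0.10. Once GC content and transcript length had been adjusted for, the difference of Fgfr4 was -1.22 in WT and -0.37 in KO, and the KO response exceeded the WT response by 0.84, less than 2-fold. With a pseudocount of 5 the WT difference was -0.74, and the difference between responses 0.48. The genes whose profile lay nearest to Fgfr4 were the microRNA gene Mir7032 (distance 0.17, at an FPKM of at most 2.14), the histone gene H4f16 (0.18) and the ethanolamine kinase Etnk1 (0.23). Etnk1 stood at 9.95 in KO and 5.73 in WT with fatty acids, and at 14.3 in KO and 18.4 in WT untreated.

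No member was 2-fold higher with fatty acids in WT (3.57% of all genes were) or in KO (0.101%), and none was 2-fold lower in KO (5.05%). No member responded 2-fold lower in KO than in WT, against 10.7% of all genes, a share that was 4.02% on the deposited scale and 4.57% at equal sums. In WT, 8 of 9 members lay above the median of the abundant genes with fatty acids, as did 53.6% of all genes, with a median of 0.26 where that of all genes was 0.03. On the deposited scale 4 of 9 members lay above 0, against 28.6% of all genes. Slc10a1 was at 0.66, Nr1h4 at 0.60 and Abcb11 at 0.57. In KO the 9 members ranged from -0.38 to 0.29, with Nr1h4 at 0.29, Cyp8b1 at 0.24, Abcb11 at -0.15 and Slc10a1 at -0.15. Markers of Kupffer cells and macrophages moved with the WT comparison too, with 8 of 9 compared markers 2-fold higher with fatty acids and a median of 1.36, against none of 9 in KO, with a median of 0.07. Their part in the responses was not tested. The comparisons of KO with WT and of fatty acids with untreated share the same 4 libraries, so their values are not independent.

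**Figure D4:**
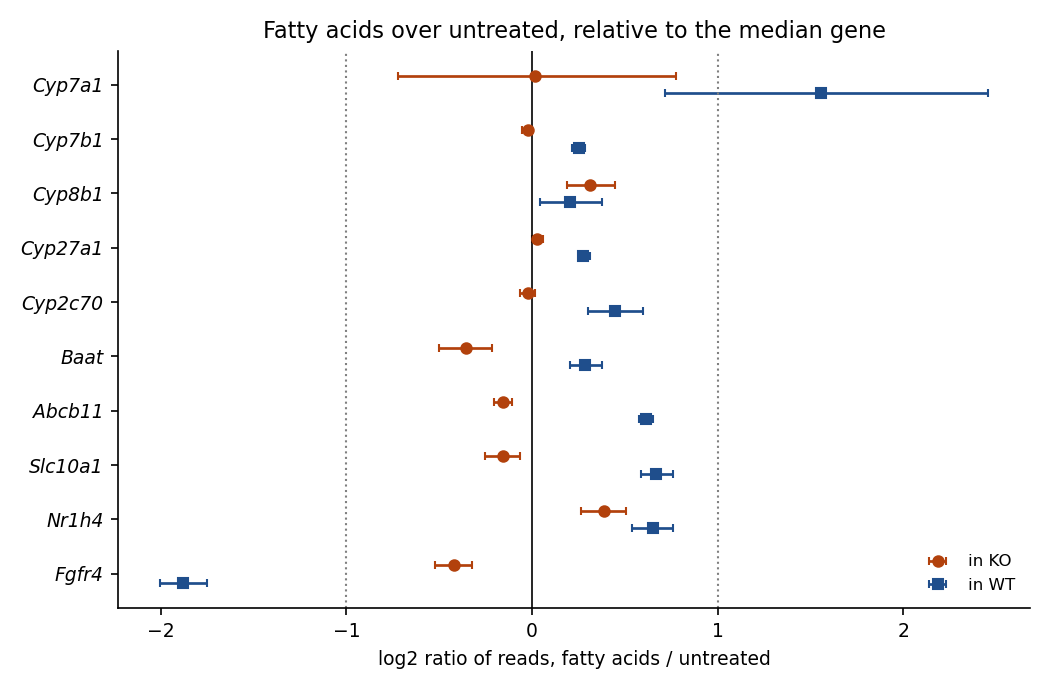
Ratio of reads with fatty acids to reads untreated (log2) for each bile acid gene in KO (circles) and WT (squares), scaled to the median gene; bars are exact binomial 95% intervals and dotted lines mark 2-fold. Fgfr4 in WT lies at a ratio of 0.272, and the wide bars of Cyp7a1 rest on 17 to 43 reads.

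Other genes of the pathway were read from 7 lists. Their counts stand against 3.12% of all genes higher and 8.43% lower in KO with fatty acids, and 3.55% higher and 2.1% lower untreated, and with so few genes a list no count is read as particular to it. Among 12 compared genes of ring and side chain synthesis, none was 2-fold higher in KO in either state, and 2 were lower with fatty acids and 2 untreated. Slc27a2, the very long-chain acyl-CoA synthetase that activates bile acid precursors, was lower in both, at 63.7 in KO and 172 in WT with fatty acids and at 66.2 in KO and 156 in WT untreated (differences -1.79 and -1.23). The aldo-keto reductase Akr1c6 was lower with fatty acids (101 in KO and 179.6 in WT, -1.20), and the peroxisomal thioesterase Acot8 untreated (3.95 in KO and 9.42 in WT, -1.08). Akr1d1, the 5-beta-reductase, stood at 5.03 in KO and 2.75 in WT with fatty acids, and at 4.50 in KO and 2.41 in WT untreated.

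Among 6 compared canalicular transporters, 1 was lower in KO in each state. This was Abcb4, the phospholipid floppase that protects the canaliculus from bile salts. It stood at 17.9 in KO and 38.5 in WT with fatty acids, and at 17.2 in KO and 37.8 in WT untreated, differences of -1.43 and -1.10. Like Abcb11 and Baat it thus lay about the same in both KO libraries and higher in both WT libraries. Abcc2, the conjugate export pump, did not reach 2-fold, at 110 in KO and 101 in WT with fatty acids and at 186 in KO and 107 in WT untreated, while its KO response minus its WT response was -1.08. Atp8b1, a canalicular phospholipid flippase, had -1.07 for the same contrast, at 2.43 in KO and 1.72 in WT with fatty acids and at 3.38 in KO and 1.22 in WT untreated. Among 7 compared basolateral transporters, Slco1a4 was lower in KO in both states (0.840 in KO and 3.60 in WT with fatty acids, 0.708 in KO and 2.53 in WT untreated), and Slco1b2 with fatty acids (20.5 in KO and 36.02 in WT, -1.16) but not by 2-fold untreated (-0.19). Both are organic anion carriers that take up bile acids without sodium. Whether the Slco1b2 difference depends on treatment was not tested, and its KO response minus its WT response was -1.02.

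Among 14 compared regulators, the nuclear receptor Nr1i3, known as CAR, was lower in KO in both states (1.95 in KO and 8.57 in WT with fatty acids, differences -2.07 and -2.24). Cyp2b10, on the list of 8 compared detoxification genes, was lower in both as well (17.2 in KO and 51.8 in WT with fatty acids, 17.9 in KO and 46.2 in WT untreated). On that list the steroid hydroxylase Cyp3a13 was also lower with fatty acids (15.4 in KO and 25.3 in WT, -1.06), and Cyp3a11 higher untreated (374 in KO and 183 in WT, 1.03). Nr5a2, which encodes the Cyp7a1 and Cyp8b1 activator LRH-1, was lower in KO with fatty acids (2.03 in KO and 4.40 in WT, -1.21) but not by 2-fold untreated (-0.21). The heterodimer partner Rxra was higher in KO with fatty acids (18.8 in KO and 6.39 in WT, 1.05), and the corepressor subunit Gps2 was lower in KO untreated (2.94 in KO and 9.03 in WT, -1.35). Of 9 compared genes listed as direct FXR targets, a list that holds Abcb11, 1 was higher and 2 lower in KO with fatty acids, and 2 were higher and 1 lower untreated. The heparan sulfate proteoglycan Sdc1 was higher in both states, at 72.0 in KO and 17.2 in WT with fatty acids and at 62.4 in KO and 24.1 in WT untreated. Among the compared genes of cholesterol supply, the lysosomal cholesterol exporter Npc1 was lower in KO with fatty acids (19.9 in KO and 41.5 in WT, -1.40). Untreated, Stard4 was the 1 gene past 2-fold in that list, and it was higher in KO (10.1 in KO and 3.93 in WT, 1.17). With fatty acids against untreated cells, no gene of the 7 lists was past 2-fold in KO, and in WT 1 was, the fibrinogen gene Fgg (859 with fatty acids and 455 untreated, 1.18). The shares over the whole comparison were 0.101% higher and 5.05% lower in KO, and 3.57% higher and 0.654% lower in WT.

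**Figure D5:**
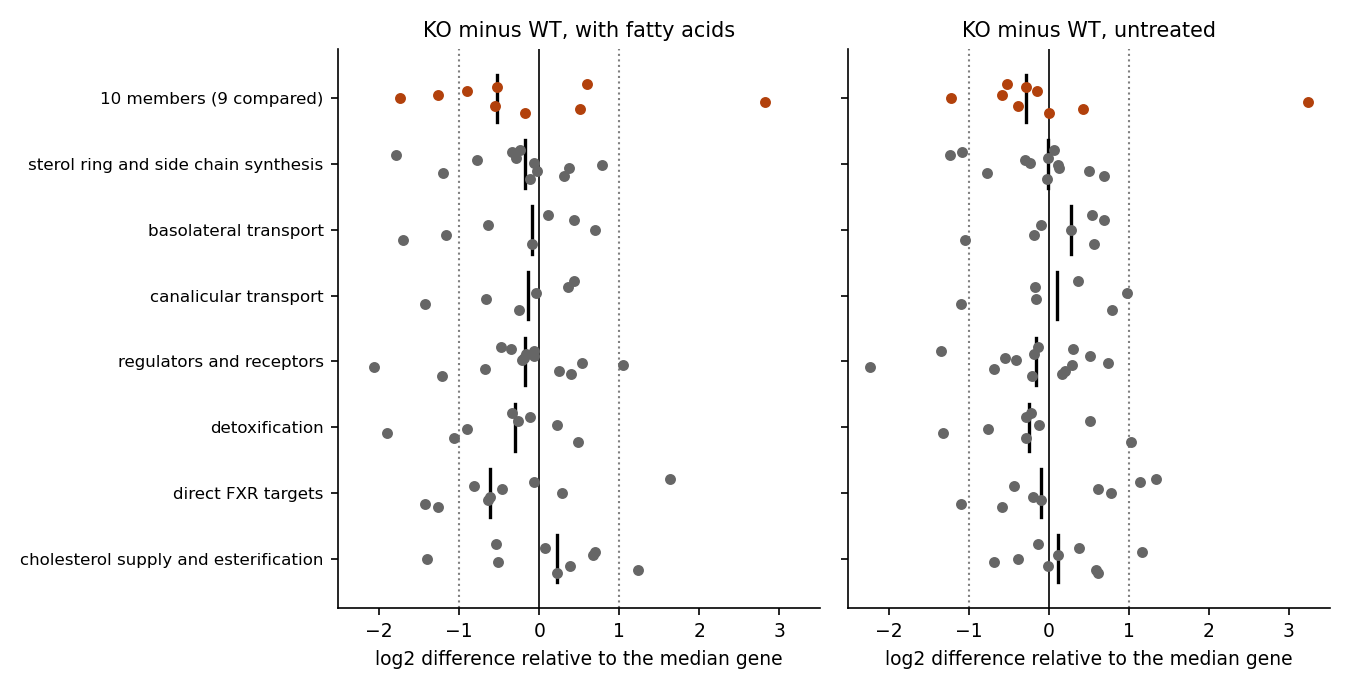
Difference of KO minus WT in log2(FPKM + 1), relative to the median gene, for the compared bile acid genes (top row) and 7 lists of related genes, with fatty acids (left) and untreated (right); each point is 1 gene, black bars are medians and dotted lines mark 2-fold. The 9 compared members have medians of -0.53 and -0.28, with Cyp2c70 at 2.82 and 3.24.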

How the data were processed

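RNA-seq of 4 libraries, 1 per group, was analysed from 1 table. Per the file headers, the authors deposited whole read counts (not normalized), FPKM (relative to transcript length and library size) and TPM, which are the deposited FPKM rescaled to equal sums. Tools listed in the submitters' processing notes are StringTie 2.1.3b, HISAT2 2.1.0, Bowtie2, Trimmomatic 0.38 and FastQC 0.11.7, with build mm10. Annotation, counting rule and strandedness were not given in the sources used here.

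Here log2(FPKM + 1) was compared for 11927 genes that reached an FPKM of 1 in any library, relative to the median of 5903 genes at 5 or more in every library, with a 2-fold rule. Read ratios carry exact Clopper-Pearson 95% intervals. Members and lists were chosen with earlier results of these data known. Named genes are the members, Nr0b2, Klb, the list genes 2-fold different in both states, and up to 6 others per list by size. Cyp2c neighbours, Slc27a5, Slc51a, Fgf15 and Gpbar1 were named outside this rule, after their values were seen. Alternatives were other pseudocounts, filters, scalings and fold rules, edgeR 4.0.16 in R 4.3.3 and, added after seeing the data, an adjustment for GC content and length. Python 3.11.15, numpy 2.4.6, scipy 1.17.1 and statsmodels 0.14.6 were used. The 2-fold rule, on log2(CPM + 1), and the additive edgeR fit were run on simulated read counts that held genotype changes and no treatment effect. RefSeq coordinates are on GRCm38.p6, which is mm10. A gene of the cholesterol supply list is not reported here.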

Additional observations from a re-analysis of the deposited data

Results flagged for a closer look

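Each result here is a pair of differences with opposite signs in the 2 genotypes or treatment states, where each of the 2 read ratios also departs from the median gene by more than its counting interval. With 1 library per group none of these contrasts was tested. With fatty acids, Baat was at -0.32 in KO and 0.25 in WT, Abcb11 at -0.15 in KO and 0.57 in WT, and Slc10a1 at -0.15 in KO and 0.66 in WT. On the deposited scale, which places the median gene elsewhere, the opposite signs of all 3 were gone. Baat was there at -0.16 in KO and -0.01 in WT, Abcb11 was at 0.01 in KO and 0.31 in WT, and Slc10a1 at 0.01 in KO and 0.39 in WT. Fgfr4 was at 0.60 for KO minus WT with fatty acids and at -0.52 untreated, and on the deposited scale at 0.97 and -0.51.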

How the results depend on the processing

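No paired analysis was possible because each group holds 1 library, so that no replicate numbers are shared, and the additive edgeR fit blocks on treatment instead. Of 7 called differences of members, 3 kept their call under all 11 alternatives: Cyp2c70 in both states (2.23 to 3.65 with fatty acids, 2.51 to 3.63 untreated) and Baat with fatty acids (-1.96 to -1.09). The other filters and the 1.5-fold rule use the same values as the main setting, so they could not undo a call of these members. No called difference of a member changed sign. For KO minus WT with fatty acids, 3 of 9 members (Cyp2c70, Cyp8b1 and Fgfr4) were higher at equal sums (TPM), where 28.0% of all genes were. With the 1.5-fold rule 2 were (Cyp2c70 and Fgfr4), where 11.1% of all genes were. In the same comparison 1 was lower on the deposited scale (4.18% of all genes) and at equal sums (3.02%), and with the 1.5-fold rule Slc10a1 joined Baat and Abcb11 (19.7%). With a pseudocount of 5, 0 members were lower in KO untreated, 0 were lower with fatty acids in WT and 0 had the higher KO response. The last was also 0 after the GC content and length adjustment. With the 1.5-fold rule, 2 members (Slc10a1 and Nr1h4) were higher with fatty acids in WT, against 11.7% of all genes, and 2 (Abcb11 and Slc10a1) had a lower KO response, against 26.2%. Of 38 differences not called, 7 were called in at least 1 alternative. The cause of these moves was not tested. Depth limits Cyp7a1 and Nr0b2 most among the genes named in the feedback loops that had reads, at 43 reads or fewer.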
